A study of Mus musculus with 6 samples.

Results

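The heterotrimeric G-protein subunit genes were taken from RNA sequencing of the prefrontal cortex of aged mice. They were found by gene symbol: protein-coding genes named Gna, Gnb1 to Gnb5, Gng with a number, Gngt1 or Gngt2. Of 21006 genes with values, 29 met this rule, namely 14 alpha, 4 beta and 11 gamma genes. Another 4 genes with such names, Gnat1, Gnat3, Gnb3 and Gngt1, were not analysed here. The 6 samples came from male wild-type C57BL/6 mice, 18 months of age, with 1 animal per sample. In the PND group (postoperative neurocognitive disorder, 3 mice), animals breathed 1.5% isoflurane for 30 min and then underwent an exploratory laparotomy of 30 min under isoflurane, with lidocaine cream and povidone iodine on the wound. Mice of the CON group (3 mice) had neither anesthesia nor operation. Both groups went through the same behavioral tests, among them fear conditioning with foot shocks. The tissue of both was taken after the Barnes maze under deep isoflurane anesthesia with saline perfusion. The maze ended several days after the operation of the PND mice. Anesthesia and operation were given together, so their contributions cannot be told apart.

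A heterotrimeric G protein carries the signal of a cell-surface receptor into the cell. The alpha subunit binds GTP when a receptor is activated and separates from a tightly joined beta-gamma pair, and both parts of the complex then act on effectors until the alpha subunit hydrolyses its GTP. Alpha subunits are sorted by effector: the Gs family stimulates adenylyl cyclase, the Gi/o family inhibits it and includes the most abundant G protein of brain, the Gq/11 family activates phospholipase C beta, and the G12/13 family is the remaining group. In the forebrain these proteins relay dopamine, acetylcholine, serotonin, noradrenaline, opioid, metabotropic glutamate and GABA-B receptor signals.

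Levels are given in FPKM, fragments per kilobase of transcript, scaled to the mapped fragments of the sample, which is meant to make genes of different length comparable. The gene lengths used are not given in the sources used here. Ranks, shares and ratios between genes therefore depend on unknown lengths, and on base composition as described below. The steps between low values, of which 41.6% to 44.8% came within 0.05 of a whole fragment, gave an estimate of the depth. It was about 7180000 to 9380000 fragments, meaning the number by which FPKM was scaled in each sample. The search covered a limited range of depths and rested on exon lengths of the GENCODE M21 annotation, which makes the fragment numbers approximate. Values of 3 fragments or fewer were treated as the floor, which covers counting error only. Differences between the groups are log2 differences of FPKM + 0.1, tested with limma over the 18185 genes that averaged 0.1 FPKM or more. In bulk tissue, fewer cells of a type and less RNA per cell cannot be told apart. The labelled tissue, prefrontal cortex, was checked with marker lists: the 11 cortical excitatory neuron markers summed to 200 to 284 FPKM, and the 12 striatal neuron markers, which should be low in cortex, summed to 110.0 to 268 FPKM. The striatal sum was above the cortical sum in PND replicate 2 and CON replicate 3 and below it in the other 4 samples. This rested on 1 gene: Penk held 120 of 213 FPKM in PND replicate 2 and 147 of 268 FPKM in CON replicate 3. Without Penk the striatal sum was below the cortical sum in every sample. Transcripts of both lists were present, and what the dissection contained was not tested. Of 80 cell type markers tested, 7 had an unadjusted p below 0.05 in limma, beside 3.13% of all genes: Gfap, Ly6c1, Clic6 and Pde10a were higher in PND, and Aqp4, P2ry12 and Opalin were lower. The microglia list was mixed, with 6 of 9 markers higher while P2ry12 was lower, and so was the endothelial and mural list, with 5 of 10 lower while Ly6c1 was higher. The 3 choroid plexus markers tested had log2 differences above 0, with the summed level of the list at 2.7 to 3.18 FPKM in PND and 1.21 to 2.38 FPKM in CON. Most of that sum was Clic6 and Kl, while Ttr, Folr1, Aqp1, Kcne2 and Otx2 were at 0.207 FPKM or less in every sample and Kcne2 was listed at 0 in all PND samples. Whether these moved any subunit gene was not tested.

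Of the 29 subunit genes, 26 passed the filter on low values: 12 alpha, 4 beta and 10 gamma. Gng10 was the only one with an unadjusted p below 0.05 in limma, which is 1 of 26 beside 3.13% of all genes tested. It was higher in PND, a direction that held for 1.73% of all genes at this p, and none of the 26 passed in the lower direction, against 1.40% of all genes. Gng10 was also the only subunit gene past the cut-off of an absolute log2 difference above 1 with an unadjusted p below 0.05, beside 1.33% of all genes. No subunit gene had an adjusted p below 0.05 (0.0110% of all genes, or 2 genes), and the smallest adjusted p among them was 0.9999. For 22 of the 26, the log2 difference was under 0.5 in size. The 95% interval of the difference lay within 1 log2 unit either way for 16 of them, namely 10 of 12 alpha, 2 of 4 beta and 4 of 10 gamma genes. For the others, a change of 2-fold or more in at least 1 direction lay within the interval at this depth and number of animals.

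**Figure D1:**
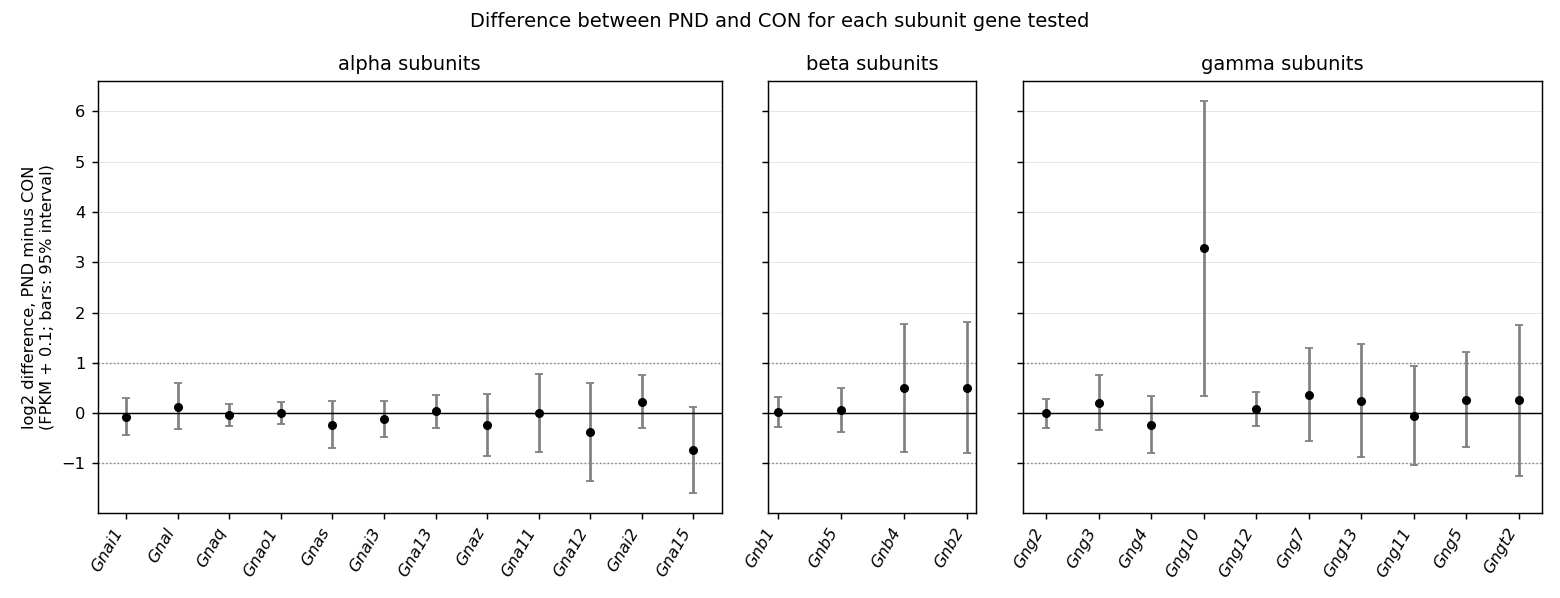
Log2 difference (FPKM + 0.1) between PND and CON for the 26 subunit genes tested, ordered within each class by mean level. Points are the limma estimates, bars their 95% intervals, and dotted lines mark a log2 difference of 1 either way. Of the 26 intervals, the one of Gng10 (0.35 to 6.21) does not include 0.

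Gng10 encodes a gamma subunit that is found in many tissues. It measured 14.2, 10.6 and 15.3 FPKM in the PND mice and 0.203, 13.4 and 0.529 FPKM in the CON mice. Thus 4 samples were high and 2 were low, with the lowest of the high samples at 20.0 times the highest of the low ones. CON replicate 2 lay inside the PND range, and the PND mean was 0.994 times its level, so the groups overlapped. The low samples held about 2 fragments (CON replicate 1) and 5 fragments (CON replicate 3), against about 110 to 189 in the other 4. The fitted log2 difference was 3.28 (SE 1.25, 95% interval 0.35 to 6.21; 2.25 with a pseudocount of 1 FPKM and 3.51 with 0.01 FPKM), with a limma p of 0.0329 before adjustment and 0.9999 after it. The call rested on 5 of the 6 libraries and on the intensity trend of the fit. Without that trend the unadjusted p was 0.0554 at the same log2 difference. Without any 1 of PND replicates 1, 2 and 3 or CON replicates 1 and 3, the unadjusted p was 0.0658 to 0.116, with a log2 difference of 2.19 to 3.44. Without CON replicate 2 the log2 difference was 4.93, with a limma p of 4.58e-06 before adjustment and 0.0832 after it, while the adjusted p was 0.970 to 1.0 in the other alternatives.

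The Gng10 transcript is not separate from its surroundings in the annotation, and its coding sequence is shown for that reason. Gng10 lies on the plus strand of chromosome 4 at 59035088 to 59041903 in GRCm38. Of its 1314 exon bases, 946 (72.0%) are also exon bases of Gm20503, an annotated read-through gene on the same strand that starts in Dnajc25 upstream and was not analysed here. The coding sequence below comes from GENCODE M21, with the coding start to stop at chr4:59035238-59039352 on the plus strand, introns removed. Capitals mark the 126 of 207 bases that Gm20503 shares.
Gng10 coding sequence: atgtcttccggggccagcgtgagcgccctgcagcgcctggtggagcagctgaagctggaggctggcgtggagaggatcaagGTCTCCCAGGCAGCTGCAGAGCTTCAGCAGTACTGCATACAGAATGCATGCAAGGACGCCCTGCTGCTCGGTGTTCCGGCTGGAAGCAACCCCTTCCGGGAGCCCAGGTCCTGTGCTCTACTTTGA

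The lower-case start is the first coding exon, which belongs to Gng10 alone in this annotation, and the capitals continue to the stop codon. Fragments from the capital part can be assigned to either gene, and how the counting shared them is not given in the sources used here. The upstream gene Dnajc25 measured 0.727, 0.973 and 0.849 FPKM in PND and 0.504, 0.378 and 1.48 FPKM in CON. It was not low in the same pair of CON samples as Gng10. Whether assignment between overlapping genes moved the Gng10 values was not tested.

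Among the alpha subunits, no gene had an unadjusted p below 0.05 in limma, and the median log2 difference of the 12 tested was -0.06, with 5 higher and 7 lower in PND. The median over all genes tested was 0.01, and 9529 of the 18185 were higher. Gnai1, Gnal, Gnaq and Gnao1 together made up 75.2% to 82.6% of the summed alpha level in each sample. In all 6 samples Gnao1 ranked just below the other 3, Gnas came next, and Gna15 was the lowest of the 12 tested. The first place alternated between Gnai1 and Gnal.

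**Figure D2:**
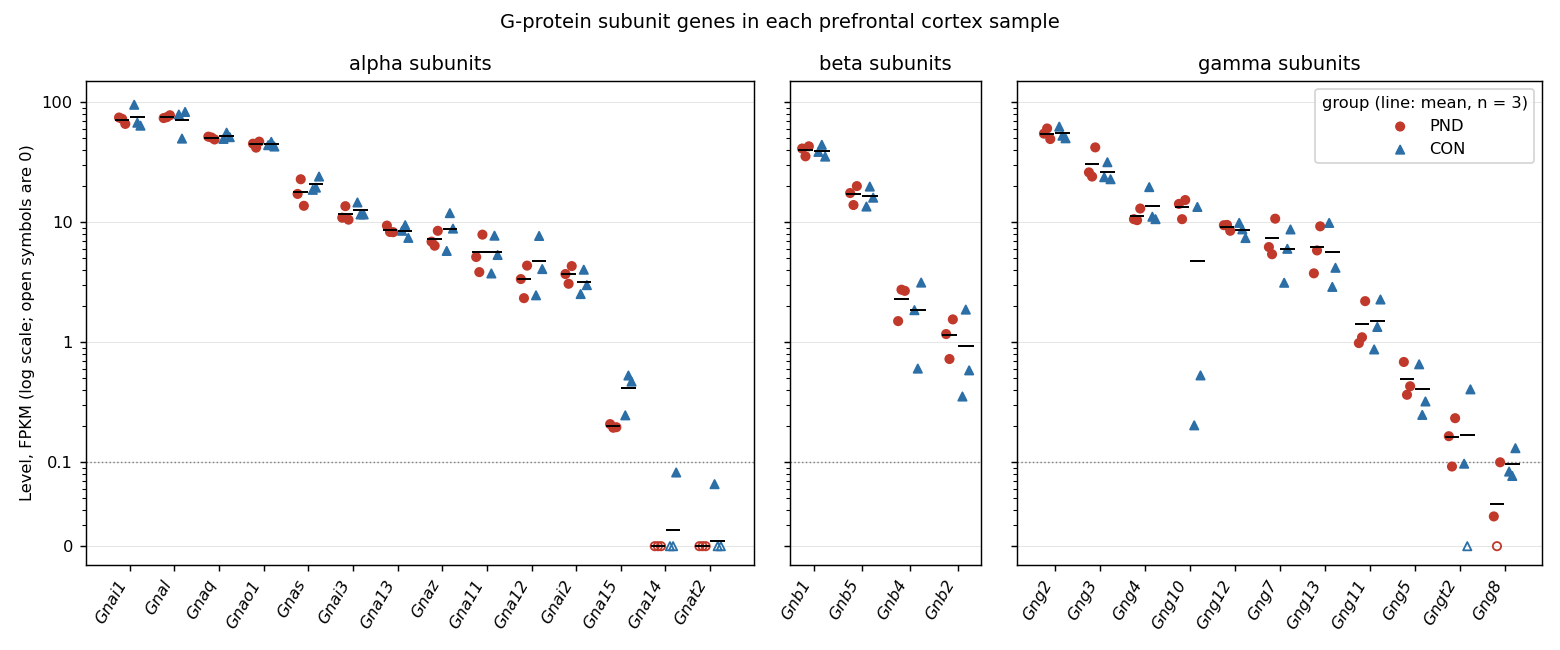
Level of the 29 subunit genes in each sample, in FPKM on a log axis, ordered within each class by mean level. Circles are PND mice, triangles CON mice, short lines group means (n = 3), open symbols samples listed at 0, and the dotted line is the filter of 0.1 FPKM. Groups overlap for every gene but Gna15, and Gng10 has 2 CON samples far below its other samples.

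Within the Gi/o family, Gnai1 encodes an inhibitory alpha subunit common in brain, and measured 74.5, 72.6 and 65.9 FPKM in PND and 95.1, 67.4 and 63.7 FPKM in CON. Its highest and lowest samples were both CON mice. Gnao1, which encodes the Go subunit that is abundant in neurons, was the steadiest member, with 45.1, 41.8 and 46.9 FPKM in PND and 43.8, 46.7 and 42.7 FPKM in CON. Its coefficient of variation over the 6 samples was 4.64%, and the 95% interval of its fold difference ran from 0.858 to 1.17. Gnai3, an inhibitory subunit of many cell types, averaged 12.1 FPKM over the 6 samples, with a log2 difference of -0.11 (SE 0.16). Gnaz, whose product is a pertussis toxin-insensitive inhibitory subunit, averaged 8.05 FPKM, with a log2 difference of -0.23 (SE 0.26). Gnai2, prominent in glia and blood cells, averaged 3.43 FPKM, with a log2 difference of 0.22 (SE 0.22). Gnat2, the cone transducin, was listed at 0 in 5 samples and at 0.0657 FPKM in CON replicate 1, which is under the floor, and was not tested. The family summed to 138 ± 2.59 FPKM (SD, n = 3) in the PND mice and 144 ± 16.2 FPKM (SD, n = 3) in the CON mice, a difference smaller than the CON spread.

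Within the Gs family, Gnal was measured at a higher level than Gnas in all 6 samples. Gnal encodes Golf, the stimulatory subunit that couples dopamine D1 and adenosine receptors to adenylyl cyclase in striatum and odorant receptors in olfactory neurons. Gnas encodes the Gs subunit of most other tissues. Gnal measured 73.7, 75.0 and 77.8 FPKM in PND and 78.9, 49.7 and 82.9 FPKM in CON, so that the PND mice lay between the lowest and the highest CON mouse. Gnas measured 17.2, 22.8 and 13.7 FPKM in PND and 18.6, 19.4 and 24.0 FPKM in CON. The ratio of Gnal to Gnas was 4.43 ± 1.21 in PND and 3.42 ± 0.841 in CON (SD, n = 3), and the groups overlapped. Neither gene passed the test, with log2 differences of 0.13 (SE 0.19) for Gnal and -0.23 (SE 0.20) for Gnas. Gnas is an imprinted locus with several first exons, and 13.1% of its exon bases overlap Gm20721 and 8.8% the antisense transcript Nespas on the opposite strand. Its value is uncertain, because use of strand in the counting and the gene length behind its FPKM are not given in the sources used here. With several first exons, its exons span 11186 bases in GENCODE M21. The order of Gnal and Gnas and their ratio depend on the lengths used.

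The level of Gnal shared its extremes with the summed striatal markers and with 6 of the 12 of them. The 12 striatal markers, among them Drd1, Drd2 and Penk, summed to 175, 213 and 214 FPKM in PND and 190.0, 110.0 and 268 FPKM in CON. CON replicate 2 was the lowest and CON replicate 3 the highest sample for the marker sum, and the same samples were the lowest and highest for Gnal. Penk, at 50.0 to 147 FPKM, was the largest component of the sum. Singly, 10 of the 12 markers were lowest in CON replicate 2 and 7 were highest in CON replicate 3, whereas Ppp1r1b and Adora2a were lowest in CON replicate 1. Rgs9, a GTPase-activating protein of striatal neurons that is itself on the marker list, had the same pair of extremes, at 9.79 and 24.2 FPKM. So did the subunit genes Gnb4 (0.603 and 3.14 FPKM) and Gngt2 (0 and 0.405 FPKM, near the floor). The interneuron marker Gad2 was also lowest in CON replicate 2, at 67.4 FPKM. These extremes were thus not particular to Gnal or to the striatal list. Gng7, the gamma subunit that pairs with Golf in striatum, did not have these extremes: it measured 6.21, 5.41 and 10.7 FPKM in PND and 3.13, 6.00 and 8.70 FPKM in CON, with CON replicate 1 lowest and PND replicate 3 highest. All 12 striatal markers were detected and had log2 differences above 0, of 0.01 to 0.62, with a median of 0.16, and 1 of them, Pde10a, had an unadjusted p below 0.05. The log2 difference of Gnal was 0.13, and its part in common with these markers was not tested.

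**Figure D3:**
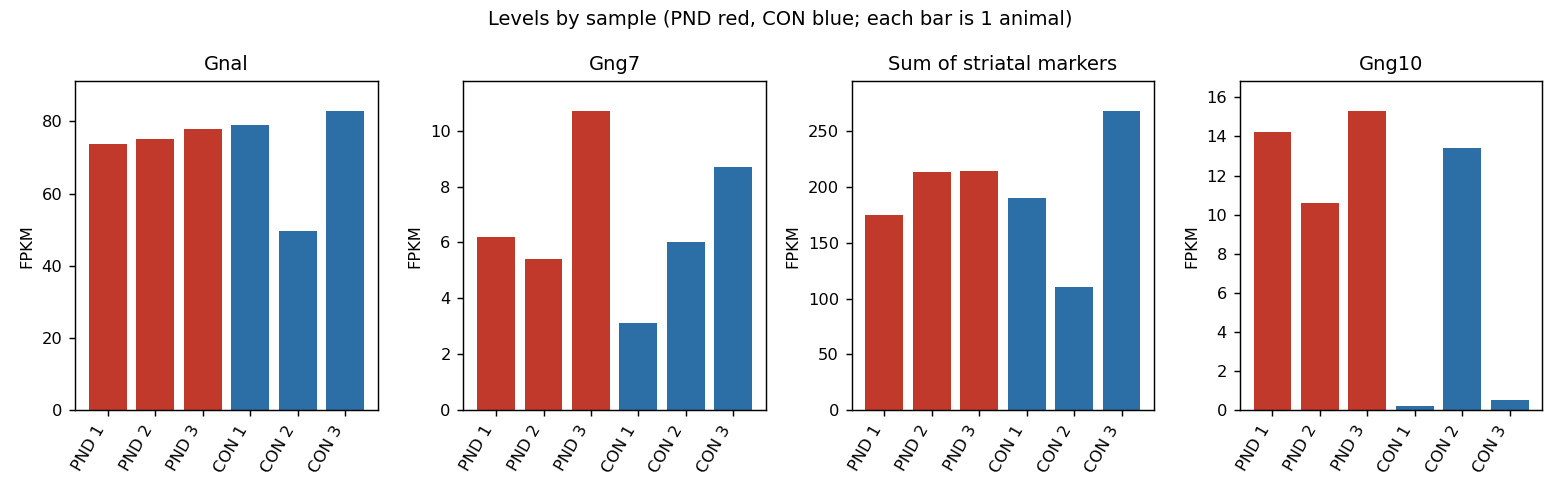
FPKM of Gnal, Gng7, the sum of the 12 striatal markers, and Gng10 in each mouse (PND red, CON blue), with each bar axis starting at 0. Gnal and the marker sum are lowest in CON replicate 2 and highest in CON replicate 3, Gng7 is lowest in CON replicate 1, and Gng10 is near 0 in CON replicates 1 and 3.

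Within the Gq/11 family, Gnaq made up most of the level. Gnaq, which couples receptors such as the muscarinic M1 receptor to phospholipase C beta, measured 51.6, 50.8 and 48.9 FPKM in PND and 49.4, 55.7 and 51.1 FPKM in CON. It was as steady as Gnao1, with a coefficient of variation of 4.70% and an interval of the fold difference of 0.832 to 1.13. Gna11, its close relative, averaged 5.62 ± 2.06 FPKM (SD, n = 3) in the PND mice and 5.60 ± 2.00 FPKM (SD, n = 3) in the CON mice. Gna14 was listed at 0 in 5 samples and at 0.0822 FPKM in CON replicate 3, under the floor, and was not tested.

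Gna15, a subunit best known from blood cells, was the only subunit gene whose groups did not overlap, which held for 7.66% of all genes tested. It measured 0.208, 0.194 and 0.196 FPKM in PND and 0.246, 0.528 and 0.470 FPKM in CON. These values stand for about 3.3 to 3.9 fragments per PND sample and 3.9 to 9.2 per CON sample, close to the floor. The log2 difference was -0.73 (SE 0.37, 95% interval -1.59 to 0.12), with an unadjusted p of 0.0822 in limma. Its size depended on the pseudocount, at -0.23 with 1 FPKM and -0.95 with 0.01 FPKM. Under quantile normalization the unadjusted p in limma was 0.0479, with GC correction 0.0339, without the intensity trend 0.0272, and without CON replicate 1 it was 0.0274 at a log2 difference of -1.0. It was 0.0741 with GC correction and block, 0.134 with the replicate block, and 0.135 to 0.204 without any 1 of the other samples.

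Of the G12/13 family, Gna13 averaged 8.64 ± 0.629 FPKM (SD, n = 3) in the PND mice and 8.44 ± 1.02 FPKM (SD, n = 3) in the CON mice. Gna12 measured 3.36, 2.33 and 4.35 FPKM in PND and 2.46, 7.68 and 4.07 FPKM in CON, with CON replicate 2 standing above all others. Its log2 difference was -0.38 (SE 0.41). With GC correction it was -0.48, with a limma p of 0.0393 before adjustment and 0.9998 after it. Of the exon bases of Gna12, 13.3% overlap Amz1 on the opposite strand, which measured 0.285 to 0.756 FPKM.

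Several alpha genes lie beside each other in GRCm38. Gna15 and Gna11 are neighbours on the same strand on chromosome 10 with a gap of 4498 bases, and Gnaq and Gna14 on the same strand of chromosome 19 with 48298 bases. Gnat2 and Gnai3 lie on opposite strands of chromosome 3 with 5847 bases between them. In each of the pairs 1 gene was well above the floor (Gna11, Gnai3 and Gnaq) and the other at or near it (Gna15, Gnat2 and Gna14). Neighbours thus differed widely in level in every sample.

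The 4 beta subunit genes had log2 differences of 0.02 to 0.50 and none passed the test. Their median log2 difference was 0.28, against 0.01 over all genes. It was 0.03 without CON replicate 1, 0.12 without PND replicate 3, 0.16 without CON replicate 2 and 0.14 with a pseudocount of 1 FPKM. Gnb1, the most widely used beta subunit, measured 41.1, 35.4 and 42.9 FPKM in PND and 38.5, 44.1 and 35.2 FPKM in CON. Gnb5, which pairs with the R7 group of RGS proteins in place of a gamma subunit, measured 17.5, 13.9 and 20.0 FPKM in PND and 13.5, 19.8 and 16.0 FPKM in CON. Both held the first and second place in all samples, and together they made up 93.2% to 96.3% of the beta level. Their log2 differences were 0.02 (SE 0.13) and 0.06 (SE 0.19).

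The lower pair of beta genes varied more than the group difference. Gnb4 measured 1.50, 2.74 and 2.68 FPKM in PND and 1.85, 0.603 and 3.14 FPKM in CON, a 5.21-fold range with both extremes in CON. Gnb2 measured 1.17, 0.725 and 1.55 FPKM in PND and 0.353, 1.87 and 0.583 FPKM in CON, again with both extremes in CON. In CON replicate 2, where Gnb4 was lowest, Gnb2 was highest. Both genes had log2 differences of 0.50, with SEs of 0.55 and 0.56. The difference of Gnb2 was 0.05 without CON replicate 1, 0.27 without PND replicate 3, 0.77 without PND replicate 2 and 0.21 with a pseudocount of 1 FPKM. Without CON replicate 2 it was 1.11, with a limma p of 0.0295 before adjustment and 0.828 after it.

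The gamma subunits are small proteins with a lipid anchor that hold the beta-gamma pair to the membrane. Of the 10 tested, 7 were higher and 3 lower in PND, with a median log2 difference of 0.23, or 0.20 over the 9 without Gng10. The median of the 10 was 0.00 without CON replicate 2, 0.07 without PND replicate 3, 0.15 without CON replicate 3, 0.08 with a pseudocount of 1 FPKM and 0.15 with GC correction. With a filter of 1 FPKM, which drops Gng5 and Gngt2, the median of the other 8 was 0.14. Apart from Gng10 none passed the test, and the smallest unadjusted p in limma among those 9 was 0.379. Gng2 and Gng3 came first and second in all 6 samples and made up 60.5% to 67.9% of the gamma level.

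Gng2, common in forebrain neurons, measured 54.7, 60.4 and 49.3 FPKM in PND and 62.5, 52.5 and 50.0 FPKM in CON, with a fold interval of 0.813 to 1.23. Gng3, a neuronal subunit, measured 26.0, 24.0 and 42.0 FPKM in PND and 23.7, 31.6 and 22.8 FPKM in CON. PND replicate 3 stood above the rest, and the log2 difference was 0.20 (SE 0.23). Gng4 measured 10.6, 10.4 and 13.0 FPKM in PND and 19.6, 11.1 and 10.6 FPKM in CON, with CON replicate 1 standing above the rest. Gng12, a broadly distributed gamma subunit, was steady at 9.14 ± 0.573 FPKM (SD, n = 3) in the PND mice and 8.66 ± 1.24 FPKM (SD, n = 3) in the CON mice. Gng7 averaged 7.42 ± 2.83 FPKM (SD, n = 3) in the PND mice and 5.94 ± 2.79 FPKM (SD, n = 3) in the CON mice, a difference smaller than either spread. Exon bases overlap a gene on the opposite strand for Gng3 (24.2%, Bscl2), Gng2 (20.4%, Gm48283) and Gngt2 (12.5%, Abi3).

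The other gamma genes were low or hard to assign. Gng13, the gamma subunit of taste and some retinal and olfactory cells, measured 3.75, 5.82 and 9.24 FPKM in PND and 9.86, 2.89 and 4.17 FPKM in CON. Of its 773 exon bases, 51.6% overlap Chtf18 on the opposite strand, which measured at most 0.079 FPKM. Gng11 averaged 1.43 ± 0.672 FPKM (SD, n = 3) in the PND mice and 1.49 ± 0.712 FPKM (SD, n = 3) in the CON mice, from 6 to 19 fragments per sample. Gng5 averaged 0.451 FPKM over the 6 samples and has 4 near-identical gene copies elsewhere in the annotation, its pseudogene Gng5-ps among them. How fragments were shared between the copies is not given, so this level is uncertain. Gngt2, the cone gamma subunit, measured 0.165, 0.0922 and 0.233 FPKM in PND and 0.0973, 0 and 0.405 FPKM in CON, or at most 5.5 fragments. Gng8 measured at most 0.131 FPKM, under the floor in every sample, and was not tested.

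Summed over each class, the difference between the groups was smaller than the SD of the CON mice or close to it. For the alpha genes, with means of 300 and 307 FPKM, it was larger than the SD of the PND mice. The alpha genes summed to 302, 301 and 297 FPKM in PND and 324, 292 and 305 FPKM in CON, a ratio of the means of 0.977. The PND mice were closer to each other than the CON mice were, with SDs of 2.36 and 16.1 FPKM. The beta genes summed to 61.3, 52.8 and 67.1 FPKM in PND and 54.2, 66.4 and 54.9 FPKM in CON, a ratio of 1.03. The gamma genes summed to 127, 128 and 151 FPKM in PND and 130, 128 and 107 FPKM in CON, a ratio of 1.11. Without Gng10 the gamma ratio was 1.04, with sums of 122 ± 12.2 and 117 ± 12.0 FPKM (SD, n = 3). Groups overlapped in all 3 classes.

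**Figure D4:**
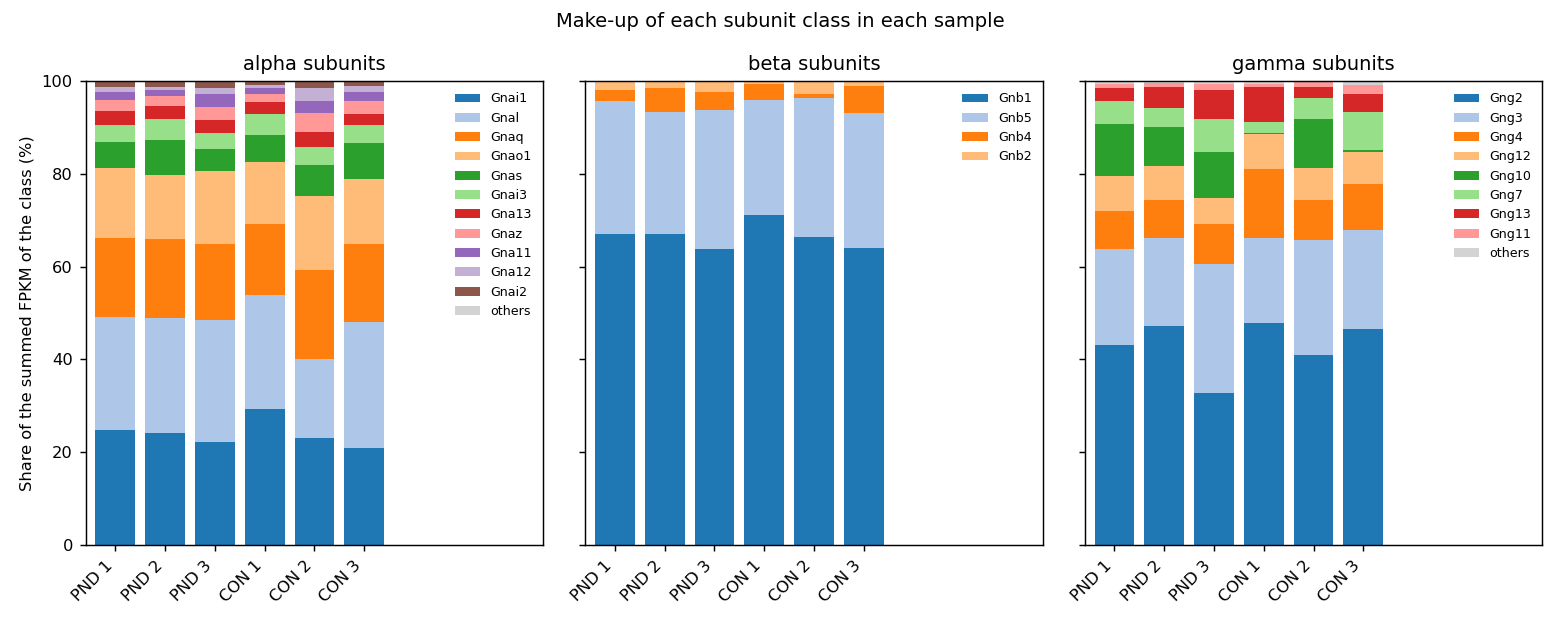
Share of each gene in the summed FPKM of its class, in percent, for each of the 6 samples. Genes averaging under 1% of the alpha or gamma sum are pooled as others. Gnb1 and Gnb5, and Gng2 and Gng3, are the first and second components of their classes in all samples, with Gnal at 17% of the alpha sum in CON replicate 2 and 24.4% to 27.2% elsewhere, and Gng10 at 0.156% and 0.493% of the gamma sum in CON replicates 1 and 3.

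By family, Gi/o genes made up 42.6% to 50.0% of the alpha sum, Gs genes 23.7% to 35.0%, Gq/11 genes 16.5% to 21.9% and G12/13 genes 3.38% to 5.87%. The lowest Gs share and the highest Gq/11 and G12/13 shares were those of CON replicate 2. The alpha sum was 5.01 ± 0.640 times the beta sum in PND and 5.31 ± 0.819 times in CON (SD, n = 3). These ratios are of transcript levels per length and say nothing of protein amounts.

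Between some samples of the same group, the subunit genes differed with their base composition. CON replicate 2 against CON replicate 1, and PND replicate 3 against PND replicate 2, were examined because GC-rich genes were higher in the first-named sample across the whole table. Over the 26 subunit genes tested, the log2 difference between CON replicates 2 and 1 had a Spearman correlation of 0.46 with the GC content of the longest transcript, and over the 12323 genes that averaged 1 FPKM or more it was 0.63. Between PND replicates 3 and 2 these were 0.57 and 0.61. In the other 4 pairs within a group, the correlation over the subunit genes was 0.18 to 0.50. The points of each comparison share the same pair of libraries, so these are descriptions of those libraries. Of the 10 subunit genes with a GC content of at least 54%, 9 were higher in CON replicate 2 than in CON replicate 1 and 9 were higher in PND replicate 3 than in PND replicate 2. Of the 9 genes below 47%, these counts were 3 and 2. Both limits were chosen after the values were seen.

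Gna12 (58.2% GC), Gnb2 (59.9%), Gna11 (57.2%), Gnaz (54.8%) and Gng7 (54.6%) were among the genes that differed most between animals of 1 group in this way. The log2 difference between CON replicates 2 and 1 was 2.12 for Gnb2, 1.60 for Gna12, 1.04 for Gnaz and 1.03 for Gna11. Gng13 (58.7% GC) went the other way, at -1.74. None of these had a difference between PND and CON of that size. The log2 difference between PND and CON itself had a correlation of -0.11 with GC content over the 26 subunit genes and of 0.24 over the 12323 genes. Over the 22 subunit genes that averaged 1 FPKM or more, without Gng10, it was 0.11. Gng10, at 46.7% GC, did not lie on this trend, with a log2 difference of 5.48 between CON replicates 2 and 1.

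**Figure D5:**
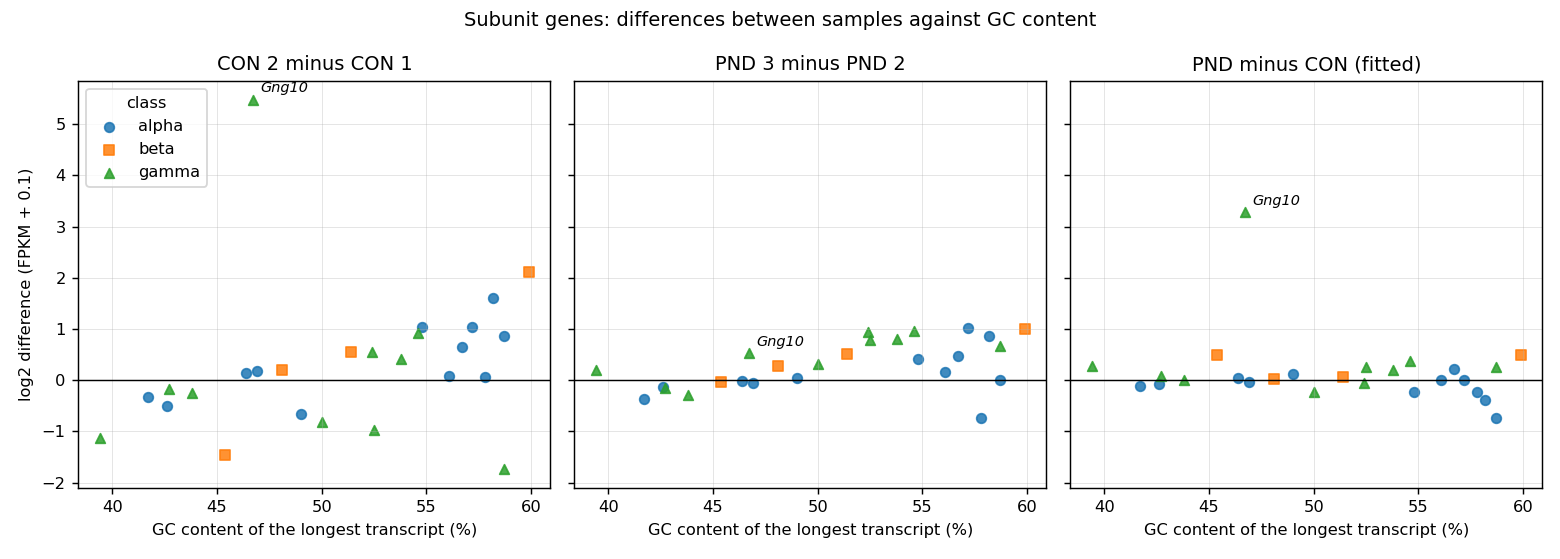
GC content of the longest transcript, in percent, against 3 log2 differences (FPKM + 0.1) for the 26 subunit genes tested, by class. From left to right these are CON replicate 2 minus CON replicate 1, PND replicate 3 minus PND replicate 2, and PND minus CON. GC-rich genes lie mostly above 0 in the first and second panels and on both sides of 0 in the third.

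The partners of the G proteins showed no gene past the test. Of 76 listed effectors, RGS proteins, chaperones and modulators, receptor kinases and arrestins, 72 had values and 68 were tested, with 29 higher and 39 lower in PND and a median log2 difference of -0.03. None had an unadjusted p below 0.05 in limma, against 3.13% of all genes, and the smallest was 0.0938 for Pggt1b, a subunit of the enzyme that attaches the lipid anchor of most gamma subunits. Pggt1b measured 9.13, 10.4 and 8.21 FPKM in PND and 11.1, 10.3 and 11.9 FPKM in CON, with PND replicate 2 just above CON replicate 2.

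Among the 23 effectors, 9 were higher and 14 lower, with log2 differences of -0.45 to 0.45. Adcy5, the adenylyl cyclase that Golf stimulates in striatum, averaged 20.4 FPKM, with a log2 difference of 0.26 (SE 0.24). Plcb1, a phospholipase C beta that Gq activates in cortex, averaged 43.0 FPKM, with -0.03 (SE 0.11). Kcnj3, Kcnj6 and Kcnj9, subunits of the potassium channel opened by beta-gamma, had log2 differences of 0.10, 0.02 and -0.10. Kcnj5, another subunit of this channel, had 0.45 (SE 0.52) at a mean of 0.216 FPKM. RGS proteins speed GTP hydrolysis by alpha subunits, and of the 19 genes tested on their list, which includes an anchoring protein, 9 were higher and 10 lower, with Rgs4 at 63.0 FPKM and a log2 difference of -0.08 (SE 0.12). Rgs7bp, which anchors the complexes of Gnb5 with R7 RGS proteins, averaged 96.5 FPKM, with -0.05 (SE 0.14).

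Of the 18 chaperones and modulators tested, 6 were higher and 12 lower, with log2 differences of -1.01 to 0.39. The lowest were those of the modulator Gpsm3, at -1.01 (SE 0.68), and of Rce1, a protease that processes lipid-anchored proteins, at -0.95 (SE 0.58). Without CON replicate 1, Rce1 had -1.6, with a limma p of 0.00509 before adjustment and 0.834 after it. Ric8b, the chaperone that folds Gs and Golf, averaged 32.0 FPKM with a log2 difference of -0.03 (SE 0.12), and Ric8a, which folds the other alpha subunits, had 0.39 (SE 0.25). Cct2, part of the chaperonin that folds beta subunits, averaged 68.7 FPKM with -0.02 (SE 0.08). Of the 8 receptor kinases and arrestins tested, 5 were higher and 3 lower, with the largest difference at Arrb1, 0.55 (SE 0.41). Among these 68 partner genes, 2 had groups that did not overlap, Rgs22 and the modulator Gpsm2, both with PND below CON, where 7.66% of all genes tested had such groups in either direction.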

How the data were processed

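Total RNA of the prefrontal cortex of 3 PND and 3 CON mice was depleted of ribosomal RNA and sequenced on an Illumina HiSeq platform. The authors trimmed reads with Seqtk, mapped them with HISAT2, counted fragments with StringTie, applied TMM scaling and deposited FPKM values, 1 file per sample. The build, the annotation, the gene lengths and the use of strand for these files are not given in the sources used here. The submitters' processing notes name mm8, mm9 and Bowtie 0.12.2 without a role. The FPKM of a sample summed to 215640 to 240447, of which 13 mitochondrially encoded genes held 30.4% to 38.8%, and 1496 to 2289 genes were listed at 0 per sample.

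Symbols, exon lengths and positions came from GENCODE M21, which held 20877 of the 21006 gene IDs. Genes that averaged 0.1 FPKM or more were tested on log2(FPKM + 0.1) with limma 3.58.1 (R 4.3.3, intensity trend, all 6 samples, no covariate), with Benjamini-Hochberg adjustment over 18185 genes. Fold changes on this scale understate the change of low genes. P-values measure the spread between single animals. Depth was estimated from the steps of low values. Near-identical genes were sought with BLAST+ 2.17.0 (at least 95% identity over 200 bases). Every subunit gene is named, and of the partner lists those past an unadjusted p of 0.05 in any of the settings, beside examples chosen after their values were seen. The subunit genes and the lists were chosen with earlier results of these data known. Some genes of the marker lists are not reported here and were left out of the lists' sums and counts.

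Alternatives were other pseudocounts, filters, scalings, a GC correction, a replicate block, no intensity trend and leaving out each sample. No columns of the files were left out.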

Additional observations from a re-analysis of the deposited data

How the results depend on the processing

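The number of subunit genes with an unadjusted p below 0.05 in limma, 1 as reported, was 2 after quantile normalization (Gng10 and Gna15), 3 with GC correction (with Gna12), 1 with GC correction and block (Gng10), 1 without the intensity trend (Gna15 in place of Gng10) and 0 to 2 when 1 sample was left out. The number past the cut-off, 1 as reported, was 0 without the intensity trend and 0 to 2 when 1 sample was left out. Among the partner genes, 0 as reported had such a p, and 1 did with GC correction (Rce1, also past the cut-off, where the count was 1), 1 without the intensity trend (Rgs22), and 0 to 3 when 1 sample was left out. Past the cut-off there were then 0 to 1. Without PND replicate 2 the gene was Pggt1b (-0.35, limma p 0.0484), and without PND replicate 3 Gpsm3 (-1.61, limma p 0.0382). Without CON replicate 1 they were Rce1, Gpsm1 (-0.7, limma p 0.0477) and Rgs10 (-0.44, limma p 0.0475). Without CON replicate 3 they were Rgs20 (0.52, limma p 0.0246) and Arrb1 (0.99, limma p 0.0227). Brackets hold log2 differences and unadjusted p, and the smallest adjusted p was 0.834. The causes were not tested. With 1 sample left out, the class medians ran from -0.09 to 0.01 (alpha), 0.03 to 0.28 (beta) and 0.00 to 0.31 (gamma). Each stayed within 1 SD between samples of the reported median, with SDs of 0.071, 0.252 and 0.283. Leaving out 1 sample could hardly pass so wide a limit, so it does not show that the medians are stable. The class sums were recomputed only without mitochondrial genes and with 1 sample left out.

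With the replicate block, 1 subunit gene had an unadjusted p below 0.05, as without it, and over all genes 361 had such a p, against 569. Deviations from the group mean showed no pairing by replicate number. Same-numbered samples correlated at -0.0487, -0.451 and 0.0274, against a mean of 0.0787 for different numbers. Of the 6 samples, 1 correlated best with its own number. Deviations within a group sum to 0 by construction, so these values cannot exclude a shared batch or pairing.

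Of the 26 subunit genes tested, 6 had the same sign of their log2 difference in all alternatives, though their values with 1 sample left out ran from -0.42 to -0.05 for Gnas, 0.07 to 0.40 for Gnai2, 0.04 to 0.60 for Gng5, 0.05 to 1.11 for Gnb2, -1.0 to -0.57 for Gna15 and 2.19 to 4.93 for Gng10. Another 17 changed it only when a sample was left out. With all samples, the sign changed for Gna11 (-0.09 with GC correction, -0.09 with GC correction and block), Gnao1 (-0.07 and -0.07) and Gng2 (0.02 and 0.02, and 0.00 after quantile normalization). With 1 sample left out, log2 differences that crossed 0 ran from -0.27 to 0.26 for Gna11, -0.77 to 0.03 for Gna12, -0.05 to 0.12 for Gna13, -0.18 to 0.11 for Gnai1, -0.22 to 0.00 for Gnai3, -0.10 to 0.27 for Gnal, -0.03 to 0.05 for Gnao1, -0.08 to 0.00 for Gnaq and -0.51 to 0.01 for Gnaz. For beta genes they ran from -0.05 to 0.11 for Gnb1, -0.11 to 0.99 for Gnb4 and -0.07 to 0.21 for Gnb5. For gamma genes they ran from -0.07 to 0.09 for Gng2, -0.05 to 0.36 for Gng3, -0.39 to 0.05 for Gng4, -0.02 to 0.70 for Gng7, -0.38 to 0.29 for Gng11, -0.02 to 0.18 for Gng12, -0.13 to 0.74 for Gng13 and -0.30 to 0.87 for Gngt2. Without CON replicate 1, Gnaz had a log2 difference of -0.51 with a limma p of 0.0388 before adjustment and 0.970 after it.

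At this depth Gna14, Gnat2 and Gng8 lay at or under 3 fragments in every sample, and Gna15, Gngt2, Gng5 and Gng11 at no more than 19. For these 4 the 95% interval reached past a 2-fold difference, as it did for Gnb4, Gna12 and Gng7 at over 60 fragments per sample.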
